A study of Danio rerio with 10 samples.

Results

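Kidney marrow, where blood cells form in adult zebrafish, was profiled on Affymetrix zebrafish arrays in 5 fish overexpressing the human transcription factor CREB, which is activated by cyclic AMP signalling, and in 5 control fish. All 10 arrays came from total RNA of whole kidney marrow, 1 animal each, and both groups are labelled with that tissue. The promoter that drives CREB, the cells that carry it, the strain, the sex and the age of the fish are not stated in the sources used here. The genes described are 10 lymphoid transcription factors, signalling kinases and recombinases, taken as a list of named genes. Of these 10 genes, 7 had a probe set whose only gene symbol in the platform annotation was that gene, namely rag1, rag2, pax5, btk, gata3, eomesa and ikzf1. They gave 8 probe sets of the 15502 tested, because pax5 had 2. The kinase genes lck and zap70 and the transcription factor gene tcf7 were not analysed here.

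Lymphocytes assemble their antigen receptor genes by cutting and rejoining DNA, and the proteins of rag1 and rag2 together form the enzyme that makes the cut. The transcription factors of ikzf1, pax5, gata3 and eomesa act at different points of lymphoid development. Ikaros (ikzf1) acts in lymphoid and other blood progenitors, Pax5 in B cell commitment and Gata3 in T cells. Eomesodermin, as known from mammals, acts in natural killer cells and effector T cells. The kinase of btk carries the signal of the B cell receptor. In zebrafish the kidney marrow is the adult site of B cell formation, whereas T cells mature in the thymus.

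Each array gave 1 log2 signal per probe set, and array medians lay between 5.72 and 5.93. Marker lists checked the tissue label. The mean signal of 9 neutrophil markers was 9.03 to 10.40 on CREB arrays and 10.11 to 11.19 on control arrays, and that of 7 erythroid markers was 8.49 to 10.48 on CREB arrays and 9.48 to 10.30 on control arrays. Markers of cell types other than blood cells gave signal as well, and the origin of these transcripts was not tested. The skeletal muscle list (16 of 18 genes measured) averaged 7.55 to 10.43 on CREB arrays and 5.20 to 5.68 on control arrays, and the kidney tubule and glomerulus list (14 of 23) averaged 7.89 to 8.82 on CREB arrays and 6.77 to 7.54 on control arrays. The exocrine pancreas list (13 of 17) averaged 5.86 to 6.60 on CREB arrays. It reached 9.33 and 10.24 on control arrays 4 and 5, against 5.51 to 6.53 on the other control arrays. The gonad and egg list (15 of 23) averaged 5.09 to 7.47 on CREB arrays, with the highest value on CREB array 4. It reached 9.44 and 9.24 on control arrays 3 and 5 and 7.59 on control array 4, against 5.92 and 5.21 on control arrays 1 and 2. The BioB spike-in control probe sets read 3.90 to 5.67 on CREB arrays 1, 2 and 4, against 6.63 to 8.82 on the other 7 arrays. The share of these features in the differences below was not tested.

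Of the 8 lymphoid probe sets, 3 were higher in CREB fish, 1 was lower and 4 did not pass (limma, with an adjusted p under 0.05 over the 15502 probe sets). The 3 that rose were those of rag2 and gata3 and 1 of the 2 for pax5, and the 1 that fell was that of btk. Over all probe sets 23.5% were called higher and 6.79% lower, so the count of 3 of 8 has to be read against a high general share of rises. In 3 of 8 probe sets all CREB arrays lay above all control arrays, which held for 19.6% of all probe sets, and in none did all CREB arrays lie below, which held for 4.2%. The median log2 difference (CREB minus control) was 0.24 over the 8 probe sets and 0.18 over all. RNA came from whole tissue, so fewer cells of a type and less RNA per cell cannot be told apart.

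The general rise belonged to dim probe sets. The 8097 probe sets with a mean signal below log2 6 had a median difference of 0.26, and the 7405 at or above it had a median difference of -0.03. Of the lymphoid probe sets, 5 of 8 lie below log2 6: those of rag1, rag2, pax5 and gata3. Control probe sets for tag sequences, 17 in number and matching no zebrafish gene, had a mean of 4.33 in CREB fish and 4.08 in control fish, and single tag probe sets averaged between 3.46 and 5.38. Rescaling the arrays lowered the median difference of all probe sets to 0.11 (median scaling), 0.04 (quantile) and -0.01 (cyclic loess). With median scaling 12.9% of all probe sets were called higher and 7.5% lower, with quantile scaling 11.1% and 7.28%, and with cyclic loess 9.5% and 8.8%. Differences of the lymphoid probe sets, and of other genes past the test, are therefore given also beside the median difference of all probe sets whose mean signal lies within 0.25 on the log2 scale of its own.

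**Figure D1:**
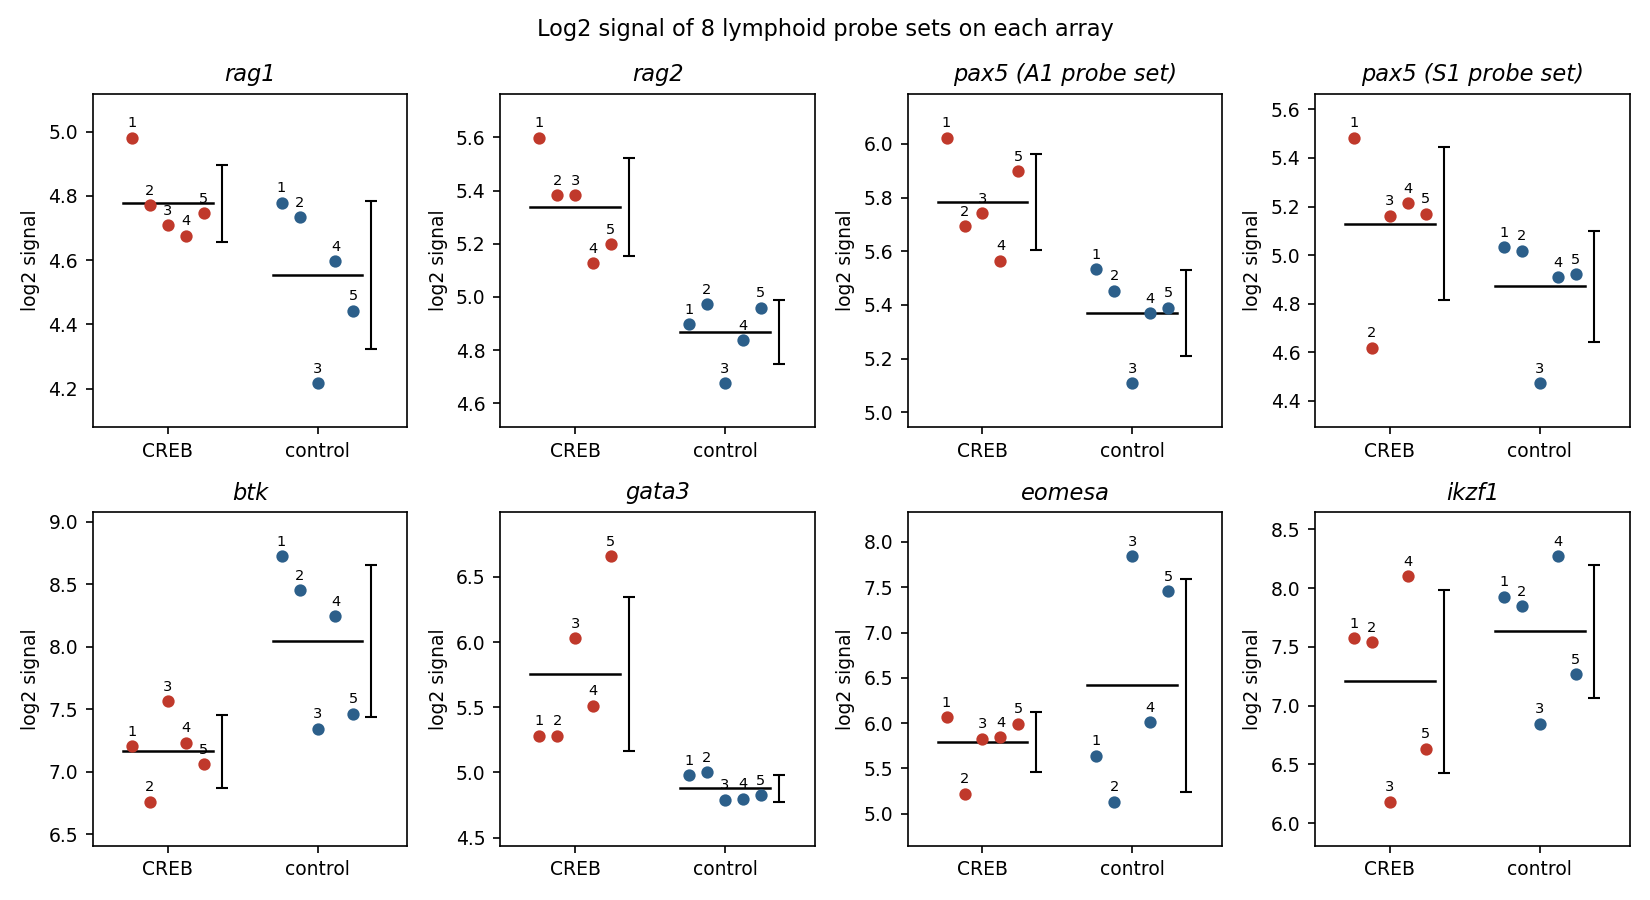
Log2 signal of each lymphoid probe set (vertical axis of each panel) on the CREB arrays, left, and the control arrays, right; numbers are replicate numbers, the horizontal line is the group mean and the bar beside it ± SD (n = 5). All 5 CREB arrays lie above all control arrays for rag2, the A1 probe set of pax5 and gata3, and the groups overlap for the other 5 probe sets.

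The recombinase genes were both measured at low signals. The rag2 signal was 5.60, 5.38, 5.38, 5.13 and 5.20 on CREB arrays 1 to 5, and 4.90, 4.97, 4.68, 4.84 and 4.96 on control arrays 1 to 5. The lowest CREB array, array 4, stood 0.15 above the highest control array, array 2, so the groups did not overlap. The group means were 5.34 ± 0.18 in CREB fish and 4.87 ± 0.12 in control fish (5 arrays a group, ± SD), a log2 difference of 0.47 ± 0.12 (SE; limma, adjusted p = 0.0169). Both means lie inside the range of single tag probe sets, so no fold is given. The 1482 probe sets with a signal like that of rag2 had a median difference of 0.31, and 32.6% of them were called higher. The difference of rag2 above that median was 0.16. The call held without any single array (adjusted p between 0.0123 and 0.0392). It was lost with quantile scaling (0.27, adjusted p = 0.0876) and cyclic loess (0.20, adjusted p = 0.148), and without control arrays 3, 4 and 5 (0.40, adjusted p = 0.163), where only 0.922% of all probe sets were called higher. It was also lost without CREB arrays 3 and 5, CREB arrays 1, 2 and 4, or control arrays 3 and 5 (differences 0.42 to 0.50, highest adjusted p 0.0575).

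For rag1, which in the RefSeq annotation GRCz12tu is the neighbour of rag2 with 0 protein-coding genes between them, the signal was 4.98, 4.77, 4.71, 4.68 and 4.75 on CREB arrays 1 to 5, and 4.78, 4.73, 4.22, 4.60 and 4.44 on control arrays 1 to 5. Only CREB array 1 was above the highest control array, and control array 3 was the lowest of all. The log2 difference of 0.22 (95% interval -0.06 to 0.51) did not pass (limma, adjusted p = 0.195), and it was smaller than the median of 0.34 among the 1483 probe sets of like signal. Its sign turned with quantile scaling (-0.033) and with cyclic loess (-0.061). A direct comparison asked whether both recombinase genes differed in their change. The rag2 signal exceeded that of rag1 on the same array by 0.56 ± 0.10 in CREB fish and by 0.31 ± 0.17 in control fish (5 arrays a group, ± SD; exact two-sided permutation test over 252 arrangements, p = 0.0476, adjusted p = 0.0952 over the 2 pairs of probe sets compared), so a larger change of rag2 was not established.

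The B cell commitment gene pax5 had a pair of probe sets whose names end in A1 and S1; the strand that each reads is not stated in the sources used here. The A1 probe set read 6.02, 5.69, 5.74, 5.57 and 5.90 on CREB arrays 1 to 5, and 5.53, 5.45, 5.11, 5.37 and 5.39 on control arrays 1 to 5. The groups were separated by 0.03, between CREB array 4 and control array 1. Its log2 difference was 0.41 ± 0.12 (SE; limma, adjusted p = 0.0306), beside a median of 0.15 and a share of 25.1% called higher among the 1360 probe sets of like signal.

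The S1 probe set of pax5 read 5.48, 4.62, 5.16, 5.21 and 5.17 on CREB arrays 1 to 5, and 5.03, 5.02, 4.47, 4.91 and 4.92 on control arrays 1 to 5. The lowest values were those of CREB array 2 and control array 3, and the other 4 CREB arrays stood above all control arrays. The difference of 0.26 (95% interval -0.12 to 0.64) did not pass (limma, adjusted p = 0.259), with a median of 0.32 at like signals, and was -0.018 with cyclic loess. The changes of both pax5 probe sets were not shown to differ (A1 minus S1 of 0.65 ± 0.27 in CREB fish and 0.50 ± 0.08 in control fish, 5 arrays a group, ± SD; exact permutation p = 0.278, adjusted p = 0.278). The call of the A1 probe set held in 4 of the 10 fits that leave out 1 array. It was lost when control array 3, 4 or 5, or CREB array 1, 3 or 5, was left out (highest adjusted p 0.0672), and under each of the 3 other scalings (differences 0.21 to 0.35). Each of the 4 sets of arrays left out together ended it as well (0.29 to 0.45, adjusted p between 0.0597 and 0.263).

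The kinase gene btk, which signals below the B cell receptor and is also used by myeloid cells, was lower in CREB fish. Its signal was 7.21, 6.76, 7.57, 7.23 and 7.06 on CREB arrays 1 to 5, and 8.72, 8.45, 7.35, 8.24 and 7.47 on control arrays 1 to 5. Control arrays 1, 2 and 4 stood above every CREB array, whereas control arrays 3 and 5 lay below CREB array 3 and above the other CREB arrays. The means were 7.17 ± 0.29 in CREB fish and 8.05 ± 0.61 in control fish (5 arrays a group, ± SD). The signal fell by 0.88 ± 0.28 in log2 units (± SE; limma, adjusted p = 0.0386), which is 1.84-fold. At like signals the median difference was -0.05 and 12.6% of 1066 probe sets were called lower.

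The neutrophil marker list ordered the control arrays in the same way as btk in part: it averaged 11.09, 11.19 and 11.05 on control arrays 1, 2 and 4, and 10.30 and 10.11 on control arrays 3 and 5. In that list 0 of 9 genes were higher and 4 were lower in CREB fish. Among all probe sets at log2 6 or more 15.9% were called higher and 11.1% lower. Pearson's r of btk with this list over the 10 arrays, after each group's mean was subtracted, was 0.75, as a description. With the macrophage list (5 of 11 genes measured) it was 0.63. The part of either list in the fall of btk was not tested. Without control arrays 3 and 5 the difference of btk was -1.31 (limma, adjusted p = 0.00988, with 5.68% of all probe sets called lower). Without control arrays 3, 4 and 5 it was -1.42 (limma, adjusted p = 0.0301), where 1.46% of all probe sets were called lower. Control arrays 3 and 5, left out in both fits, had the lowest control signals of btk, so a larger fall was fixed by the choice. The first of these sets was added after seeing the data. The call held in 3 of the 10 fits that leave out 1 array, those without CREB array 3 or control array 3 or 5, and was lost in the other 7 (adjusted p up to 0.0785). It was lost with quantile scaling (-0.82, adjusted p = 0.0814) and held with median scaling and cyclic loess (-0.94 and -0.89). It was lost too without CREB arrays 3 and 5 (-0.98, adjusted p = 0.0842) and without CREB arrays 1, 2 and 4 (-0.73, adjusted p = 0.223).

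Among the T and natural killer cell factors, gata3 was higher in CREB fish. It read 5.28, 5.28, 6.03, 5.51 and 6.66 on CREB arrays 1 to 5, and 4.98, 5.003, 4.79, 4.80 and 4.83 on control arrays 1 to 5. The control arrays spanned only 0.21, within the range of tag probe sets, and the CREB arrays spanned 1.38, with arrays 5 and 3 the highest. The lowest CREB array stood 0.28 above the highest control array. The means were 5.75 ± 0.59 in CREB fish and 4.88 ± 0.10 in control fish (5 arrays a group, ± SD), a difference of 0.87 ± 0.25 (SE; limma, adjusted p = 0.0277). At like signals the median difference was 0.25, and 28.7% of 1488 probe sets were called higher.

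Without CREB arrays 3 and 5 gata3 differed by 0.48 (limma, adjusted p = 0.0360; 10.7% of all probe sets were called higher there). Without CREB arrays 1, 2 and 4, whose BioB signal was low, gata3 differed by 1.46 (limma, adjusted p = 0.00341, with 18.7% of all probe sets called higher). That set was added after seeing the data. It keeps the 2 CREB arrays with the highest gata3 signals, so a larger difference was fixed by the choice and adds no support. The call was lost when CREB array 3 or control array 3, 4 or 5 was left out (highest adjusted p 0.0586) and with each of the 3 other scalings (0.63 to 0.81, adjusted p between 0.0618 and 0.115). Leaving out control arrays 3 and 5 (0.83, adjusted p = 0.0969) or control arrays 3, 4 and 5 (0.76, adjusted p = 0.227) ended it as well. Besides T cells, gata3 is expressed in the zebrafish pronephric duct. In the kidney tubule and glomerulus list 11 of 14 genes were higher and none lower in CREB fish, beside 23.5% and 6.79% of all probe sets. The largest of these rises were those of ddc (4.44) and slc20a1a (4.17), and the smallest was that of wt1a (0.49). The list averaged 8.78, 8.82, 8.53, 7.89 and 8.60 on CREB arrays 1 to 5. The 2 CREB arrays with the highest kidney level, arrays 1 and 2, had the lowest gata3 signal of the CREB arrays, and array 4, with the lowest kidney level, had a middling one. On control arrays 1 to 5 the list averaged 7.31, 7.54, 6.77, 7.02 and 7.09, the same order as that of their gata3 signals. After each group's mean was subtracted, r of gata3 with the kidney list over the 10 arrays was 0.07, as a description. The same r was 0.77 for rag2, 0.70 for rag1, and 0.74 and 0.16 for the A1 and S1 probe sets of pax5. It was 0.30 for btk, -0.04 for ikzf1 and -0.55 for eomesa. The kidney list itself had an r of -0.84 with the gonad and egg list. With the gonad and egg list r was -0.85 for rag1, -0.51 for rag2, and -0.66 and -0.28 for the A1 and S1 probe sets of pax5. For btk, ikzf1 and gata3 it was -0.67, -0.25 and -0.15. The part of kidney or egg transcripts in the rise of gata3, or in the other lymphoid signals, was not tested.

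The T-box gene eomesa did not pass the test. It read 6.06, 5.22, 5.83, 5.85 and 5.99 on CREB arrays 1 to 5, and 5.64, 5.14, 7.84, 6.01 and 7.45 on control arrays 1 to 5. Control arrays 3 and 5 stood apart, and the other 3 control arrays lay within or just below the CREB range. The log2 difference was -0.63 (95% interval -1.72 to 0.46; limma, adjusted p = 0.332), beside a median of 0.03 at like signals. In zebrafish eomesa is also a maternal transcript, stored in the egg. The gonad and egg list averaged 5.41, 5.09, 5.997, 7.47 and 5.56 on CREB arrays 1 to 5, and 5.92, 5.21, 9.44, 7.59 and 9.24 on control arrays 1 to 5. The 2 arrays with the highest eomesa signal were thus the 2 with the highest gonad and egg level. The interrenal and chromaffin list (8 of 11 genes measured, 6 of them near the level of the tag probe sets) averaged 4.51 to 5.34 on CREB arrays. It read 6.396 and 5.06 on control arrays 3 and 5, against 4.19 to 4.36 on the other control arrays. Its genes did not move together. On control arrays 3 and 5 cyp11a1.1 (8.70 and 7.75), cyp17a1 (7.45 and 5.97) and hsd3b2 (6.41 and 6.45) stood above the other control arrays. The gene star read 12.25 on control array 3 and 10.85 on CREB array 1, but 4.23 on control array 5. The genes nr5a1a, mc2r, th and dbh read 3.24 to 4.79 on control arrays 3 and 5. After each group's mean was subtracted, Pearson's r of eomesa over the 10 arrays was 0.87 with the gonad and egg list and 0.86 with the interrenal and chromaffin list, as a description. Both lists had an r of 0.66 with each other, so they do not stand as separate correlates. The part of either in the eomesa signal was not tested. Without control arrays 3 and 5 the difference was 0.19 (adjusted p = 0.577), and without control arrays 3, 4 and 5 it was 0.40 (adjusted p = 0.322), so its sign rested on these arrays.

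**Figure D2:**
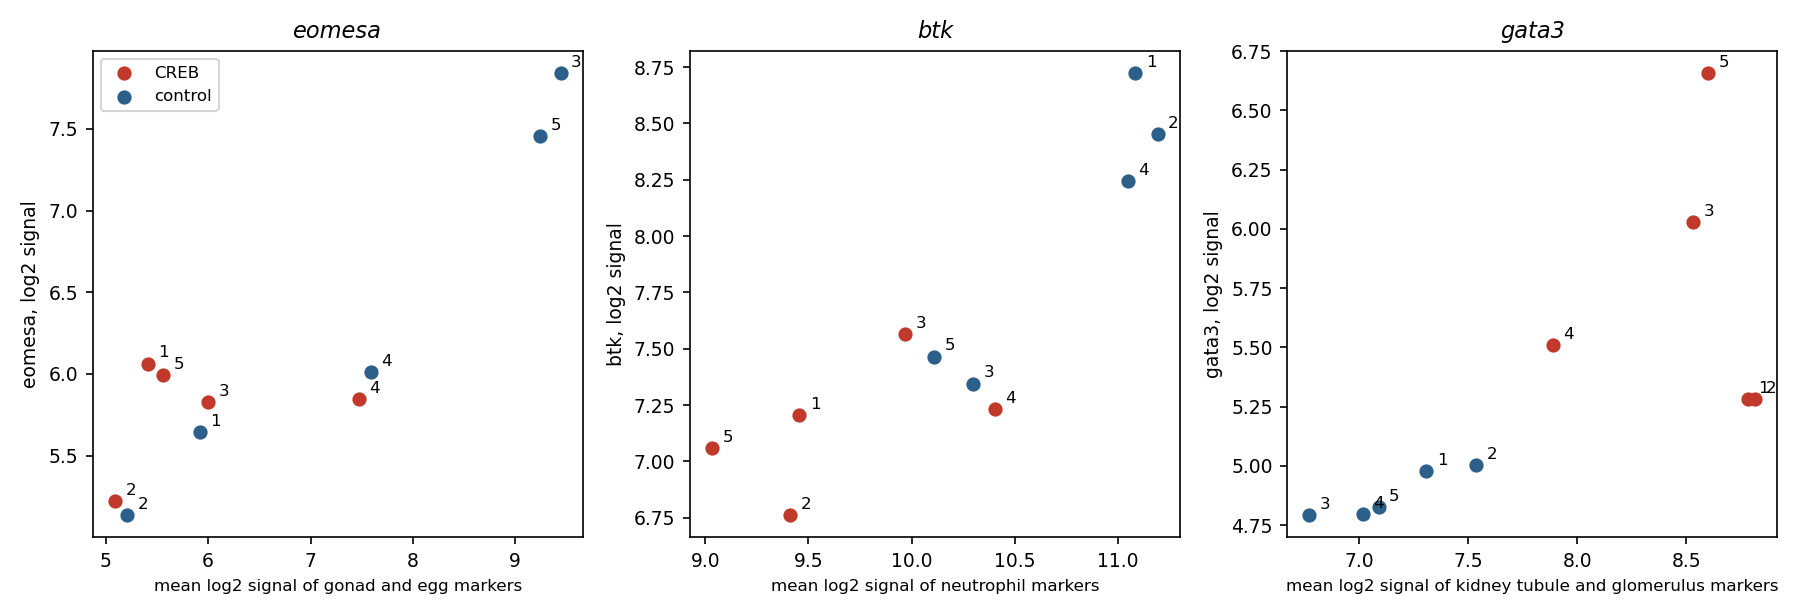
Log2 signal of eomesa, btk and gata3 (vertical axes) on each array against the mean log2 signal of a marker list on the same array (horizontal axes: gonad and egg, neutrophil, kidney tubule and glomerulus); CREB arrays are red, control arrays blue, and numbers are replicate numbers. Control arrays 3 and 5 combine the highest gonad and egg levels (9.44 and 9.24) with the highest eomesa signals (7.84 and 7.45), control arrays 1, 2 and 4 combine the highest neutrophil levels with the highest btk signals. In the gata3 panel the control arrays have the same order by kidney level and by gata3 signal, and the CREB arrays do not. Over both groups together r is 0.07 after each group's mean was subtracted.

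The Ikaros gene ikzf1, required for lymphoid development, was read by 1 probe set that matches alternative transcripts of the gene. Its signal was 7.57, 7.54, 6.18, 8.10 and 6.63 on CREB arrays 1 to 5, and 7.93, 7.84, 6.85, 8.27 and 7.27 on control arrays 1 to 5. The groups overlapped widely, and only CREB arrays 3 and 5 lay below every control array. The means were 7.21 ± 0.78 in CREB fish and 7.63 ± 0.57 in control fish (5 arrays a group, ± SD), and the difference of -0.43 (95% interval -1.29 to 0.44) did not pass (limma, adjusted p = 0.408), with a median of -0.06 at like signals. Without CREB arrays 3 and 5 it was 0.11 (adjusted p = 0.830), so in this fit, which ignores replicate number, the sign rested on these 2 arrays. The same 2 arrays had the highest gata3 signals. Each CREB array read lower for ikzf1 than the control array of the same number, but a pairing by number was neither shown nor excluded. With replicate number as a block in the fit, ikzf1 did not pass either (limma, adjusted p = 0.0637).

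**Figure D3:**
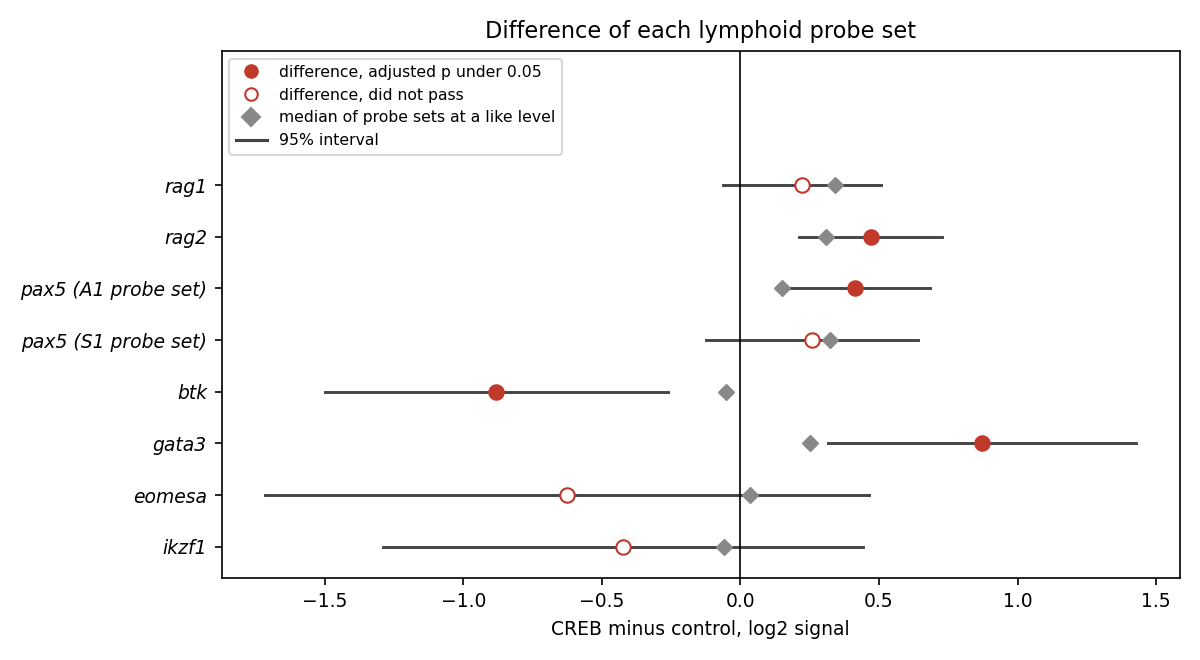
Log2 difference of each lymphoid probe set, CREB minus control (horizontal axis), with its 95% interval (line) and, as grey diamonds, the median difference of all probe sets of like mean signal. The interval of gata3 (0.32 to 1.43) and that of btk (-1.50 to -0.26) leave out the diamond (0.25 and -0.05), and those of rag1, rag2, both pax5 probe sets, eomesa and ikzf1 include it.

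For the 4 probe sets past the test, the named genes with the most similar pattern were found by Pearson's r over the 10 arrays after each group's mean was subtracted, so that the group difference itself did not count. Each r is the highest among all named genes and is a description. For btk these were zgc:174863, prkar1aa and nfya (r = 0.98, 0.97 and 0.97), with log2 differences of -0.09, 0.03 and -0.11 that did not pass. For gata3 they were msx2a, p4htma and tnni2a.2 (r = 0.96, 0.95 and 0.94), of which tnni2a.2 passed, with a difference of 0.68. For rag2 they were drd2l, slc6a17 and oprd1a (r = 0.96, 0.95 and 0.95), with differences of 0.45, 0.49 and 0.46 that all passed. The mean signals of these 3 genes were 5.14, 5.53 and 4.78, near that of rag2 (5.10). For the A1 probe set of pax5 they were si:dkey-195m11.8, zgc:175107 and asb2b (r = 0.97 each), of which asb2b passed, with a difference of 0.63.

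Beyond these genes, 134 lymphoid genes were listed in 6 groups and 41 of them were measured. Of the 41, 5 were higher in CREB fish, 3 were lower and 33 did not pass the test. Most of the 41 were brighter than the typical probe set, so they are set against probe sets of their own level. Among the 29 whose mean signal reached log2 6, there were 2 higher and 3 lower calls, with a median difference of -0.23. Among all probe sets at that level 15.9% were called higher and 11.1% lower, with a median of -0.03. Of the 12 below log2 6, 3 were higher and none lower, with a median difference of 0.07. Among all probe sets below log2 6, 30.4% were called higher and 2.84% lower, with a median of 0.26. The B cell antigen receptor genes cd79a, cd79b and ighm and the T cell coreceptor genes cd4-1 and cd8a were not analysed here.

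Of 10 genes that rejoin the cut DNA or act as recombinase cofactors, 7 were measured and 0 passed (limma). The shares over all probe sets were 23.5% called higher and 6.79% called lower. An unadjusted p under 0.05 (limma) was reached by 3 of the 7, and the share of all probe sets at that p was not counted. The Ku subunit gene xrcc6 read 7.74 ± 0.36 in CREB fish and 8.21 ± 0.08 in control fish (5 arrays a group, ± SD; difference -0.48, limma, adjusted p = 0.0535). It passed in 5 of 22 alternatives and not in the other 17. Those 5 were median scaling (limma, adjusted p = 0.0373), cyclic loess (0.0437), array weights (0.0374), and the fits without CREB array 2 (0.0164) or CREB arrays 1, 2 and 4 (0.00502). The last of these fits keeps CREB arrays 3 and 5, the lowest for xrcc6. The end-joining factor gene nhej1 had a difference of -0.70 (adjusted p = 0.0789), and the DNA-bending cofactor gene hmgb1a had one of 0.50 (adjusted p = 0.0825). The other Ku subunit gene, xrcc5, had a difference of -0.23 (95% interval -0.63 to 0.18).

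Of 22 B cell genes 5 were measured and 0 passed (limma), beside 23.5% of all probe sets called higher and 6.79% called lower. The count was also 0 at an unadjusted p under 0.05 (limma). The tetraspanin gene cd81a had a difference of -0.56 (adjusted p = 0.147), with -0.59 and 0.06 in its other probe sets. The adaptor gene blnk, which links the B cell receptor to btk, had one of 0.61 (95% interval -0.13 to 1.36; adjusted p = 0.177), opposite in sign to that of btk. The receptor-proximal kinase gene syk had a difference of 0.16 and the E protein gene tcf3a one of 0.06, and both turned negative with quantile scaling and cyclic loess.

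Of 28 T cell genes 6 were measured, of which 1 was higher and 1 lower, beside 23.5% and 6.79% of all probe sets. The adaptor gene grap2b, whose product acts below the T cell receptor, read 5.64 ± 0.34 in CREB fish and 6.92 ± 0.68 in control fish (5 arrays a group, ± SD; difference -1.27 ± 0.31, SE; limma, adjusted p = 0.0163). All CREB arrays (5.26 to 6.10) lay below all control arrays (6.15 to 7.72), and the median difference at like signals was -0.01. The call was lost without CREB arrays 3 and 5 (-1.13, adjusted p = 0.0798). The Src family kinase gene fyna was higher by 0.31, beside a median of 0.29 at like signals, at levels (3.87 in CREB fish, 3.56 in control fish) below the mean of the tag probe sets, and its difference was 0.05 with quantile scaling and 0.05 with cyclic loess. Its call was lost in 8 of the 10 fits that leave out 1 array (highest adjusted p 0.0974). The T cell receptor alpha gene trac had a difference of -0.32 (95% interval -1.33 to 0.69; limma, adjusted p = 0.601), and its other probe sets had 0.13 and 0.34. The leukocyte phosphatase gene ptprc, carried by most white blood cells, had a difference of -0.44 (adjusted p = 0.330).

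Only 1 of 17 natural killer and cytotoxic genes was measured, the NK-lysin gene nkl.4, which encodes a pore-forming antimicrobial peptide. It read 7.30 ± 0.66 in CREB fish and 8.58 ± 0.77 in control fish (5 arrays a group, ± SD) and fell by 1.28 ± 0.41 in log2 units (± SE; limma, adjusted p = 0.0396), beside a median of -0.04 at like signals. The call was lost when CREB array 1, 3, 4 or 5, or control array 1, 2 or 4, was left out (highest adjusted p 0.0817), and with each set of arrays left out together other than control arrays 3 and 5 (highest adjusted p 0.122). Quantile scaling ended it as well (-1.20, adjusted p = 0.0723). Of 18 cytokine and homing receptor genes 4 were measured and 0 passed (limma), beside 23.5% of all probe sets called higher and 6.79% called lower. An unadjusted p under 0.05 (limma) was reached by 1 of the 4. That was the chemokine receptor gene cxcr4a, with a difference of 1.08 ± 0.37 (SE; adjusted p = 0.0508), whereas its paralogue cxcr4b had one of -0.78 (adjusted p = 0.213). The thymus-homing chemokine gene ccl25b had a difference of -0.55 and the cytokine receptor kinase gene jak1 one of 0.22 (adjusted p = 0.382 and 0.585).

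Of 39 other transcription factor and fate genes 18 were measured, of which 4 were higher and 1 lower. Over all probe sets 23.5% were called higher and 6.79% lower, near the shares in this list. The largest rise was that of id2a, whose product restrains the E proteins used by B and T cells, and which in mammals acts in innate lymphoid cells. It read 10.79, 10.81, 10.64, 10.64 and 11.09 on CREB arrays 1 to 5, and 9.61, 9.57, 10.04, 9.34 and 10.08 on control arrays 1 to 5. The lowest CREB array stood above the highest control array, and the difference was 1.07 ± 0.17 (SE; limma, adjusted p = 0.00403). At like signals the median difference was 0.02. The call of id2a was kept under all 22 alternatives. The Notch receptor genes notch1b and notch1a were higher by 0.71 ± 0.14 and 0.38 ± 0.08 (SE; limma, adjusted p = 0.00921 and 0.0114), beside medians of 0.26 and 0.31 at like signals. The call of notch1a, at a signal of 4.30 in CREB fish and 3.92 in control fish, was lost with quantile scaling and cyclic loess (0.11 and 0.10) and without control arrays 3, 4 and 5 or CREB arrays 1, 2 and 4 (0.42 and 0.34), and its other probe set, at 0.25, did not pass. The factor gene ets1 was higher by 0.46 ± 0.11 (SE; limma, adjusted p = 0.0161; median at like signals -0.05), but its other probe set had a difference of 0.02, and the call was lost without control arrays 3 and 5 (0.40, adjusted p = 0.0683), control arrays 3, 4 and 5 (0.36, adjusted p = 0.191) or CREB arrays 1, 2 and 4 (0.43, adjusted p = 0.0598). That of notch1b was lost without control arrays 3, 4 and 5 (0.60, adjusted p = 0.126). The progenitor factor gene myb, named after its values were seen, was the 1 that fell, by 1.54 ± 0.42 in log2 units (± SE; limma, adjusted p = 0.0233), with a median of -0.03 at like signals. That call was lost without CREB arrays 3 and 5 (-0.94, adjusted p = 0.0942), without control arrays 3, 4 and 5 (-1.96, adjusted p = 0.0921) and when CREB array 5 or control array 1 or 4 was left out (highest adjusted p 0.0527).

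**Figure D4:**
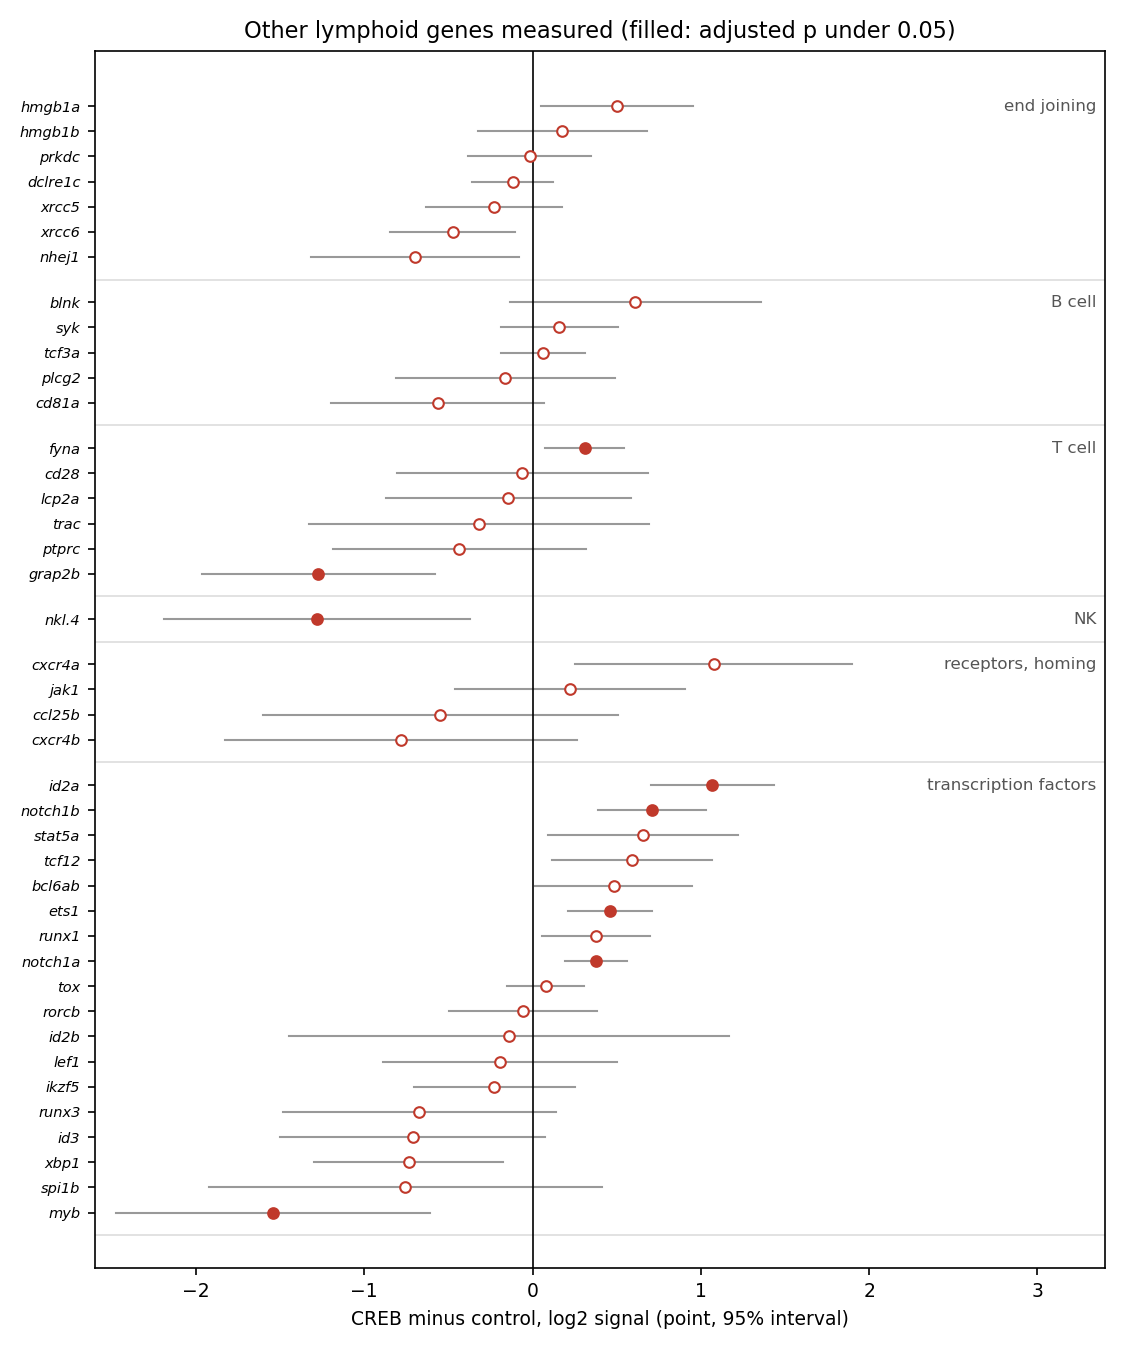
Log2 difference, CREB minus control, of the 41 other lymphoid genes measured (horizontal axis; point with 95% interval), grouped by list; filled points passed the test. Of the 41, 5 are filled on the right of 0 and 3 on the left.

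**Figure D5:**
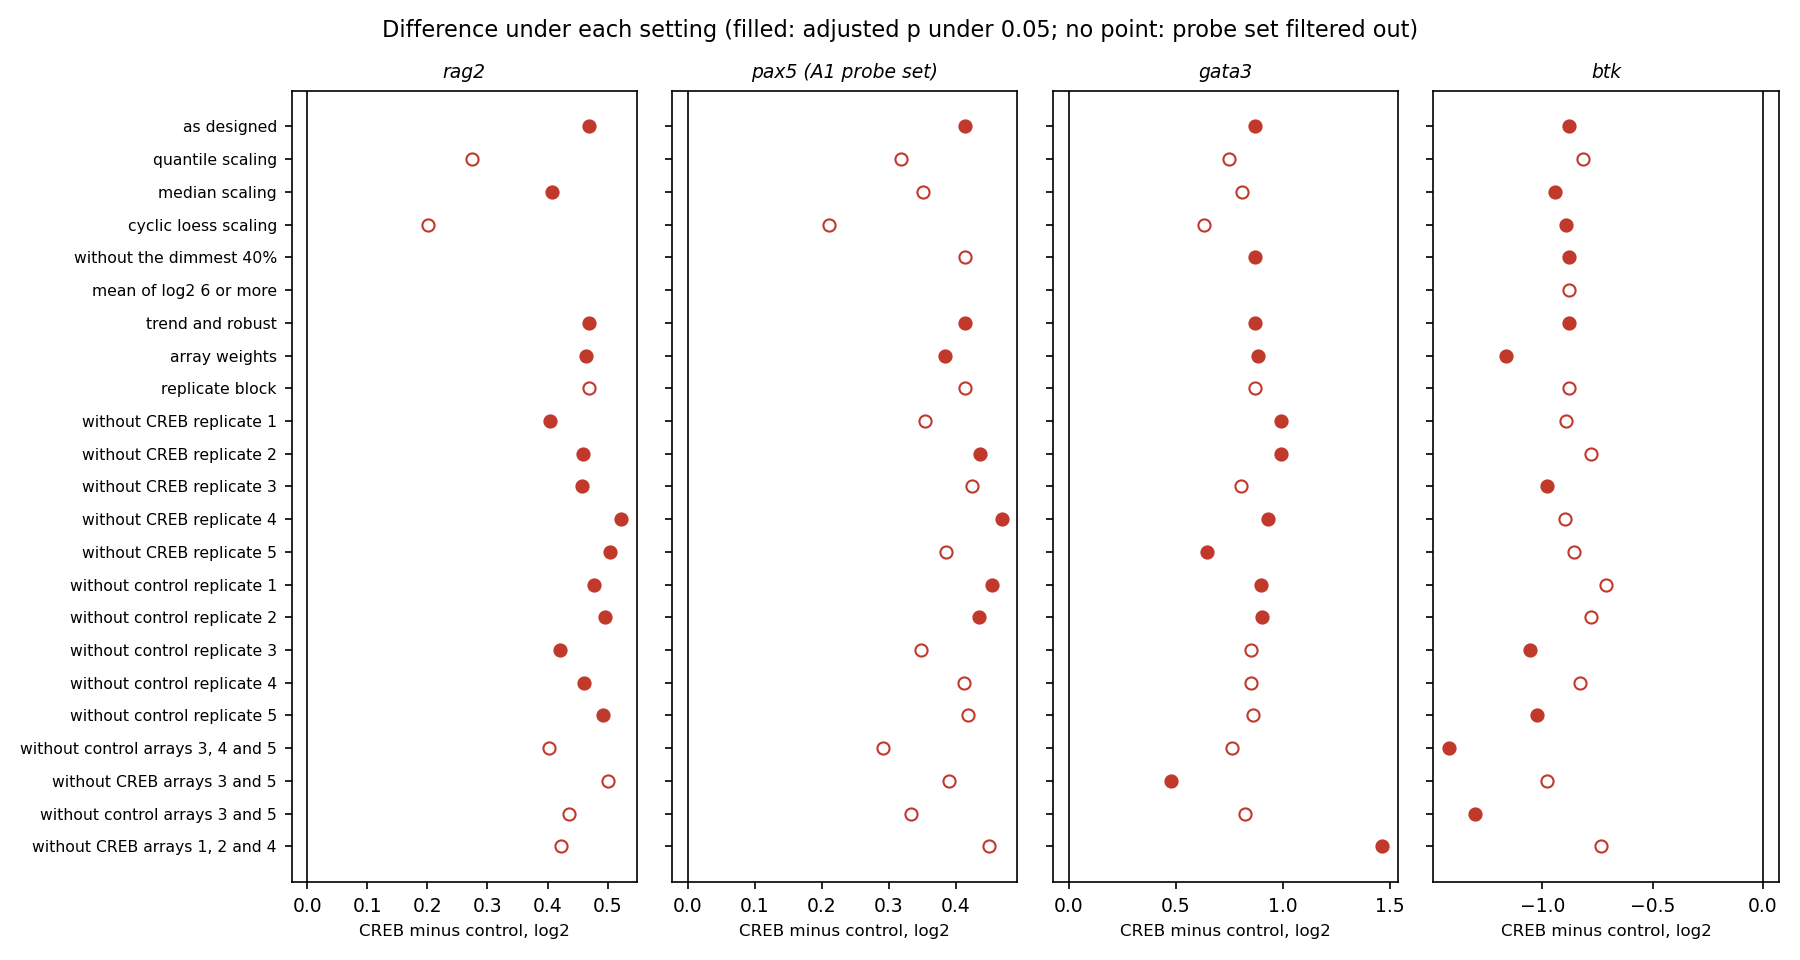
Log2 difference, CREB minus control, of rag2, the A1 probe set of pax5, gata3 and btk (1 panel each, horizontal axis) under each setting (vertical axis); filled points have an adjusted p under 0.05. The sign stays the same in every row shown, and the call changes between rows in all 4 panels.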

How the data were processed

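The authors' deposited value table gives 15617 probe sets on 10 arrays. Its values were read as log2 from their range, since the deposited table states no unit, and the summary and scaling methods are not given in the sources used here. Per the labels' protocols, biotin-labelled RNA was prepared with the Affymetrix IVT Express kit. The 115 control probe sets of the manufacturer stayed out of the tests, and no filter was used. Symbols came from the platform annotation. For the other lists they were updated by gene ID (10711 of 10795 probe sets with 1 symbol; 135 had several symbols and 4572 none), using RefSeq names of GRCz12tu.

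CREB was compared with control in limma 3.58.1 (R 4.3.3; lmFit, eBayes, two-sided, no covariate), with Benjamini-Hochberg adjustment over 15502 probe sets, a threshold of 0.05 and 95% intervals. For other lists, the probe set with the highest mean stood for a gene. Named genes were all members, up to 4 genes of each list with the smallest p, and the 3 most similar genes of each member past the test. The members and lists were chosen with earlier results of these data known. The alternatives were other scalings, filters on dim probe sets, a trended and robust eBayes, weights for arrays, a replicate block, and arrays left out, of which the sets of control arrays 3 and 5 and of CREB arrays 1, 2 and 4 were added after seeing the data. The fit was tested on simulated data. The number of arrays limits the precision, and no sequence table was used. Python 3.11.15 drew the figures with matplotlib 3.10.9.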

Additional observations from a re-analysis of the deposited data

Results flagged for a closer look

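Single arrays stood far from the rest of their group in 3 of the 60 groups of 5 looked at, and chance gives about 1 in 20. The S1 probe set of pax5 was at 4.47 on control array 3, against 4.91 to 5.03 on the other control arrays. For eomesa, CREB array 2 read 5.22 and the remaining CREB arrays 5.83 to 6.06. For jak1, CREB array 4 read 11.16 and the remaining CREB arrays 9.63 to 10.07.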

How the results depend on the processing

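Over 30 named probe sets and their alternatives, 524 of 642 differences kept their sign and their side of the threshold, 89 kept the sign and lost the call, 12 gained it and 17 turned sign. The 12 gained calls were those of xrcc6 (5), cxcr4a (3), cd81a (2), ptprc (1) and cxcr4b (1). The count of lymphoid probe sets higher in CREB fish (3) was 0 with quantile scaling, cyclic loess, the replicate block, or without control arrays 3, 4 and 5 or 3 and 5, and 1 with median scaling, without the dimmest 40%, and without CREB arrays 3 and 5 or 1, 2 and 4. The count lower (1) was 0 with quantile scaling, a mean of log2 6 or more, the replicate block, and without CREB arrays 3 and 5 or 1, 2 and 4. Leaving out 1 array gave 1 to 3 higher and 0 to 1 lower. With a mean of log2 6 or more the count higher was 0 by construction, since all 3 probe sets lie below that level and were not tested.

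For the 41 related genes, 5 higher became 3 with quantile scaling, cyclic loess or without control arrays 3 and 5, 2 with the replicate block or without CREB arrays 1, 2 and 4, and 1 without control arrays 3, 4 and 5. The 3 lower became 5 with median scaling, 6 with cyclic loess, without control arrays 3 and 5 or without CREB arrays 1, 2 and 4, 1 without control arrays 3, 4 and 5, and 0 without CREB arrays 3 and 5. Leaving out 1 array gave 4 to 7 higher and 1 to 4 lower.

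Over all probe sets, 3640 higher became 1723 with quantile scaling, 2001 with median scaling, 1473 with cyclic loess, 1294 without the dimmest 40%, 907 with a mean of log2 6 or more, 1762 with the replicate block, 143 without control arrays 3, 4 and 5, 1664 without CREB arrays 3 and 5 and 1556 without control arrays 3 and 5. The 1052 lower became 619 with a mean of log2 6 or more, 616 with the replicate block, 226 without control arrays 3, 4 and 5 and 370 without CREB arrays 3 and 5. Leaving out 1 array gave 2474 to 3925 higher and 609 to 1238 lower. Fewer probe sets or arrays entered the filtered and reduced fits; for the rest the cause was not tested.

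Differences that turned sign were those of rag1 (-0.033 with quantile scaling, -0.061 with cyclic loess), the S1 probe set of pax5 (-0.018 with cyclic loess), eomesa (0.40 and 0.19 without control arrays 3, 4 and 5 and 3 and 5), ikzf1 (0.11 without CREB arrays 3 and 5), tcf3a (-0.18 with quantile scaling, -0.22 with cyclic loess, -0.0023 without control arrays 3 and 5, -0.11 without CREB arrays 1, 2 and 4), syk (-0.11 with quantile scaling and cyclic loess) and jak1 (-0.047 with array weights, -0.14 without control arrays 3, 4 and 5, -0.11 without control arrays 3 and 5, -0.18 without CREB arrays 1, 2 and 4, and -0.030 to 0.35 over the fits that leave out 1 array). None of these passed the test.

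Replicate numbers are shared by both groups. After each group's mean was subtracted, r between same-numbered arrays across probe sets was 0.20, 0.27, 0.05, -0.0027 and -0.02 for numbers 1 to 5. Among the 5 control arrays, the same-numbered one ranked 2, 1, 2, 3 and 4 by r with the CREB array. A pairing by number was thus neither shown nor excluded. With the replicate block the differences were the same and the adjusted p was 0.0550 for rag2, 0.0616 for the A1 probe set of pax5, 0.0630 for gata3 and 0.0830 for btk. The block also ended the calls of nkl.4 (0.0593), ets1 (0.0578), notch1a (0.0576) and fyna (0.104), and those of id2a, notch1b, grap2b and myb held. The 4 lymphoid probe sets without a call stayed so. Their adjusted p with the block was 0.200 for rag1 (0.195 without it) and 0.293 for the S1 probe set of pax5 (0.259). It was 0.255 for eomesa (0.332) and 0.0637 for ikzf1 (0.408).

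With related genes read from the probe set with the smallest p, 7 were higher and 3 lower, and with the mean of their probe sets 5 and 3. Probe sets other than the brightest passed for tox (0.67, limma, adjusted p = 0.00803) and tcf12 (0.76 and 0.47, adjusted p = 0.0120 and 0.0269). A further one of tcf12 did not pass (0.36, adjusted p = 0.251). Background correction and slide could not be varied, since only processed values were used. Signals near those of tag probe sets limit what can be said of rag1, rag2, pax5 and gata3.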
